A study of Mus musculus with 48 samples.

Results

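Liver RNA of mice killed at collection time 0 h was set against liver RNA of mice killed at collection time 20 h, the first and the last of 6 times taken 4 h apart. The comparison holds every library that the labels give as 0 h or 20 h, in both genotypes, which is 16 of the 48 libraries. At 0 h there were 4 KO and 4 WT libraries, and at 20 h there were 4 KO and 4 WT libraries. KO mice carried a floxed Bmal1 gene (Bmal1 f/f) together with Cre recombinase under the aP2 promoter (aP2-Cre), and WT mice were their littermate controls. The labels give strain C57BL/6 for all 4 groups, and the design text gives an age of 4 to 6 months. All mice had spent 36 h in constant darkness before the first time and were killed in darkness, and each library is one mouse per the labels' protocols. Mice of the 20 h groups therefore had been in darkness longer than mice of the 0 h groups. Time of day and time spent in darkness cannot be told apart in these groups.

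The aP2 promoter is a driver used for fat cells, and the tissue here is liver. Bmal1, listed under its symbol Arntl, was expressed in every library. Its normalised counts per 1000000 (CPM) were 37.0, 33.8, 34.1 and 26.8 in the KO 0 h libraries and 38.6, 43.4, 29.8 and 38.3 in the WT 0 h libraries. They were 29.4, 37.3, 32.8 and 29.8 in the KO 20 h libraries and 33.6, 29.6, 37.1 and 30.5 in the WT 20 h libraries, so that all 4 groups overlapped. The table gives one count per gene, so a deleted stretch is not measured on its own.

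The circadian clock is a loop of transcription factors present in most cells. BMAL1 pairs with CLOCK or NPAS2 and switches on genes that carry an E-box, among them the Period and Cryptochrome genes, whose proteins return to the nucleus and shut the pair off. REV-ERB and ROR nuclear receptors compete at a second kind of site (RORE), and the related factors DBP, TEF and HLF, opposed by NFIL3, act at the D-box. In liver these factors time the transcription of genes for lipid, sugar and drug metabolism.

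Library totals were 12847558 to 12950689 counts at 0 h and 12873535 to 13009797 counts at 20 h, without albumin. The 10 hepatocyte markers summed to 40949.9 to 61004 CPM at 0 h and 37832 to 54016 CPM at 20 h. The labels' cell type field reads adipocyte. The 11 fat cell markers summed to 211 to 2132 CPM at 0 h and 254 to 1326 CPM at 20 h. Among them Lep was at 0 counts in all 16 libraries, and Adipoq, Plin1, Retn and Cfd had at most 5 counts, while Car3 (723 to 25278 counts), Plin4 (506 to 3250 counts), Cidec, Lpl, Fabp4 and Pparg were detected in every library. The design text describes male mice. The X-inactivation transcript Xist had 3344 to 10432 counts in these 16 libraries and the Y-linked genes Uty, Kdm5d and Eif2s3y had at most 1 count. In 3 libraries the gene content stood apart. WT 0 h replicate 3 held transcripts of the adrenal cortex (Cyp11b1 370 counts, against 0 in the other 15 libraries) and a high acute phase signal (Saa1 111674 counts), KO 0 h replicate 2 held transcripts of the exocrine pancreas (Cela2a 907 counts, at most 12 elsewhere), and KO 20 h replicate 1 had Saa1 at 29715 counts. Smaller pancreas counts were also seen elsewhere. Ctrb1 had 835 counts in KO 0 h replicate 2, 15 and 7 in KO 0 h replicates 3 and 4, and 10 in KO 20 h replicate 3. Reg1 had 34 counts in KO 20 h replicate 3. The calls are given below with and without the 3 libraries that stood apart. In bulk tissue, fewer cells of a type and less RNA per cell cannot be told apart.

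Upstream sequences of 4 genes that fell at 0 h are shown here because they hold motifs of the clock loop. They are RefSeq windows on build GRCm38.p6 from 250 bases before to 50 bases after the annotated start, 5′ to 3′ on the gene's strand, with matches in capitals. The motifs searched on both strands were the E-box CACGTG, its variant CACGTT, the D-box TTATGTAA or TTACGTAA, and a RORE core TAGGTCA or TGGGTCA. Per3 lies on chr4:151044616-151044915 (minus strand) and has D-boxes that begin 205 and 158 bases before the start. Cry1 lies on chr10:85185005-85185304 (minus strand) and has the variant and an E-box that begin 79 and 60 bases before the start. Tef lies on chr15:81802423-81802722 (plus strand) and has an E-box 127 bases before the start. Rhobtb1 has 3 windows, of which the one on chr10:69212407-69212706 (plus strand) has an E-box 67 bases before its start and the other 2 hold none of the motifs.
Per3: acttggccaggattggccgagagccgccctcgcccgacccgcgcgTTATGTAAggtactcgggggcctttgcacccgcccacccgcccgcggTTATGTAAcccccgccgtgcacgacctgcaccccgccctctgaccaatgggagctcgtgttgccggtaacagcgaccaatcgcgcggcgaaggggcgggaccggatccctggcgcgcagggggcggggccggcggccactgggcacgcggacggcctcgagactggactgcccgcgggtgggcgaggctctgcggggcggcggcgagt
Cry1: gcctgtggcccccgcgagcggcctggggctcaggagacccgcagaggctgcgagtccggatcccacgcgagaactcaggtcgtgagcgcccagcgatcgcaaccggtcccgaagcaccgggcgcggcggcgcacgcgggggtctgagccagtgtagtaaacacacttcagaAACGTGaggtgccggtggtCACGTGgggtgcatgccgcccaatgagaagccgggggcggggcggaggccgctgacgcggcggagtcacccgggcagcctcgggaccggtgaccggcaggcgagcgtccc
Tef: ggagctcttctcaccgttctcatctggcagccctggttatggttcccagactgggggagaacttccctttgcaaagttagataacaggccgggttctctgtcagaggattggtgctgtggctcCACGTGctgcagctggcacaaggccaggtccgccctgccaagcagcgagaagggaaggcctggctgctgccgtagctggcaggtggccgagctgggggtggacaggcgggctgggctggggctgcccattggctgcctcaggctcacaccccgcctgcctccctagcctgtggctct
Rhobtb1: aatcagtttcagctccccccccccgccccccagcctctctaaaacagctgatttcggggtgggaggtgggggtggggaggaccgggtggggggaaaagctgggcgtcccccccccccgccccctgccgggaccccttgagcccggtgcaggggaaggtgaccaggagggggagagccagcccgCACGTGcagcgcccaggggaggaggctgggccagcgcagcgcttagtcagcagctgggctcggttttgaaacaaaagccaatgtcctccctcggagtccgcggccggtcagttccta
Over all 32851 windows of the table, 7.15% hold the E-box, 4.68% the variant, 1.06% a D-box and 6.45% a RORE core. Windows were found for 16 of the 20 genes past the test, 23 windows in all, and 5 of these 16 genes (31.2%) hold at least 1 of the motifs in a window, beside 20.3% of all genes in the table. By window this is 6 of 23 (26.1%), beside 18.1% of all windows. The fifth is Osbpl5, with an E-box 161 and a RORE core 230 bases before the start of 1 of its windows, and a second window of Tef holds an E-box 138 bases before its start. Among clock genes that did not pass the test, Per1 holds an E-box and Arntl a RORE core in 1 of 2 windows each, Cry2 and Nr1d1 the variant, and Nfil3 a RORE core. A match describes the letters in these windows and no more.

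Between 0 h and 20 h, 20 genes passed the test, 16 of them lower and 4 higher at 0 h. The 16 that fell include the clock repressors Per2, Per3 and Cry1, the D-box factor Tef and the output genes Usp2, Klf13 and Cyp2a5. The 4 that rose are Lgals9, Spon2, Prf1 and Bcl2l14. The test was edgeR's quasi-likelihood test with genotype as covariate, at a Benjamini-Hochberg adjusted p under 0.05 over 12812 genes, so that 0.156% of genes were called (0.125% lower and 0.0312% higher). All log2 changes are 0 h minus 20 h, given with their standard error (SE). At an unadjusted p under 0.05 there were 1433 genes (11.2%), 714 higher (5.57%) and 719 lower (5.61%). DESeq2 called 178 genes (1.39%), 81 higher (0.632%) and 97 lower (0.757%), which include all 20. The median log2 change over all genes tested was −0.00755, and 48.7% of genes had a positive change.

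**Figure D1:**
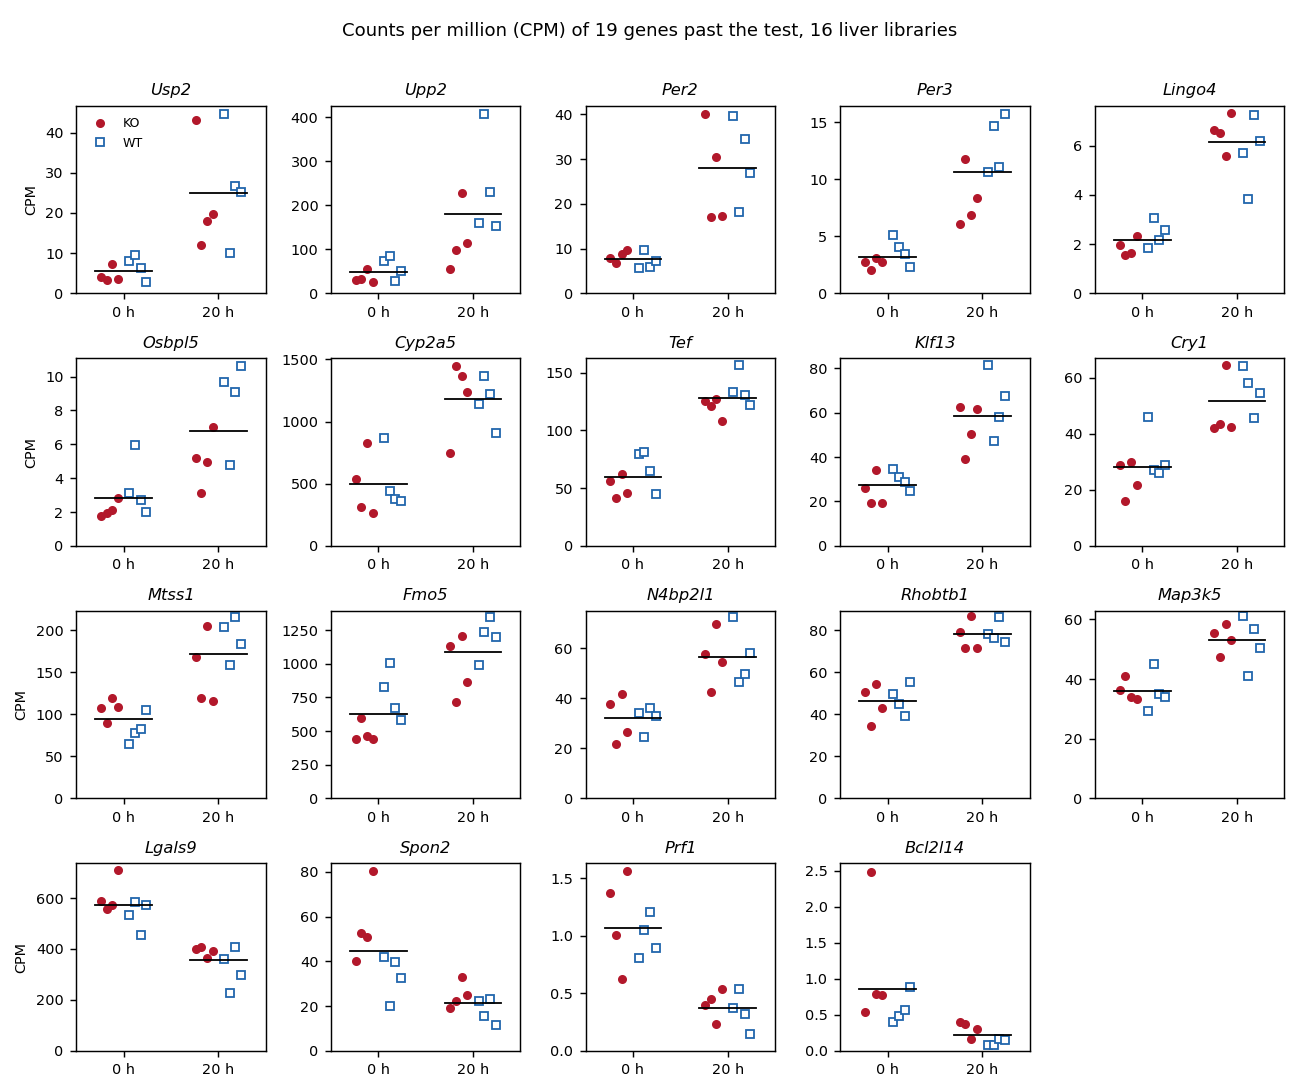
Normalised counts per 1000000 (CPM; vertical axes, linear from 0) of 19 genes past the test in the 16 libraries, with 0 h on the left and 20 h on the right of each panel. Filled circles are KO mice, open squares WT mice and bars the mean of 8 libraries. The lowest 20 h library of Per2 (17.0 CPM) lies above the highest 0 h library (9.66 CPM).

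Among the Period and Cryptochrome genes, which encode the repressor limb of the loop, 3 of 5 tested members fell at 0 h and none rose, and the list's median log2 change was −0.90. Per2, whose protein is a core clock repressor (chr1:93312561-93355907 in mm9), had 7.92, 6.75, 8.87 and 9.66 CPM in KO 0 h livers and 5.63, 9.61, 5.86 and 7.27 CPM in WT 0 h livers. At 20 h it had 40.1, 17.0, 30.5 and 17.3 CPM in KO livers and 39.6, 18.2, 34.5 and 26.9 CPM in WT livers. Every 0 h library lay below every 20 h library. The means were 7.70 ± 1.59 CPM at 0 h and 28.0 ± 9.72 CPM at 20 h (SD, n = 8 each), a log2 change of −1.86 ± 0.21 (SE) with an adjusted p of 0.000366 by edgeR. The same separation held within each genotype.

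Per3, another of the Period genes (chr4:150377761-150418774 in mm9), had 2.74, 2.02, 3.06 and 2.73 CPM in KO 0 h livers and 5.15, 4.04, 3.45 and 2.30 CPM in WT 0 h livers. Its 20 h values were 6.09, 11.8, 6.85 and 8.32 CPM in KO livers and 10.6, 14.6, 11.03 and 15.7 CPM in WT livers. Here too the times did not overlap, and at 20 h the KO values lay mostly below the WT values. The log2 change was −1.72 ± 0.18 (SE), with an adjusted p of 0.000366 by edgeR.

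Cry1, the cryptochrome that represses BMAL1 and CLOCK late in the cycle (chr10:84594447-84647799 in mm9), averaged 28.1 ± 8.68 CPM at 0 h and 51.9 ± 9.61 CPM at 20 h (SD, n = 8 each). Its 0 h libraries ran from 16.0 to 46.2 CPM (median 27.9) and its 20 h libraries from 42.2 to 64.5 CPM (median 50.1). Only WT 0 h replicate 1, at 46.2 CPM, reached into the 20 h range. The log2 change was −0.90 ± 0.16 (SE, adjusted p = 0.0338 by edgeR). The call was lost on leaving out any of 8 single libraries or the 3 that stood apart, with adjusted p-values of 0.0501 to 0.122. Those 8 are KO 0 h replicates 1 and 4, WT 0 h replicates 2, 3 and 4, KO 20 h replicates 3 and 4, and WT 20 h replicate 1.

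The other 2 members did not pass. Cry2, the second cryptochrome, had a log2 change of −0.52 ± 0.18 (adjusted p = 0.296 by edgeR), and Per1, the Period gene most quickly induced by light and hormones, had −0.67 ± 0.53 (adjusted p = 0.671). Per1 had 4.64, 24.3, 24.5 and 2.65 CPM in KO 0 h livers and 72.5, 64.5, 26.7 and 19.6 CPM in WT 0 h livers. At 20 h it had 88.3, 34.5, 20.1 and 33.9 CPM in KO livers and 62.6, 13.8, 34.9 and 37.8 CPM in WT livers. The KO change was −1.66 and the WT change 0.30 on the log2 scale, and their difference did not pass (unadjusted p = 0.0515, adjusted p = 1.00 by edgeR).

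Among the REV-ERB and ROR receptors, 3 genes are described here and did not pass. Nr1d1 (REV-ERBα, a repressor) had a log2 change of 0.68 ± 0.62, Nr1d2 (REV-ERBβ) −0.77 ± 0.27 and Rora −0.38 ± 0.21, with adjusted p-values of 0.713, 0.298 and 0.527 by edgeR. Nr1d1 ran from 1.63 to 19.3 CPM at 0 h and from 0.925 to 10.3 CPM at 20 h, and the times overlapped.

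Of the D-box factors and their opponent Nfil3, 1 of 4 fell. Tef, which encodes thyrotroph embryonic factor (chr15:81632851-81657291 in mm9), had 56.3, 41.4, 62.1 and 46.1 CPM in KO 0 h livers and 79.2, 81.0, 65.1 and 44.8 CPM in WT 0 h livers. Its values were 126, 122, 127 and 108 CPM in KO 20 h livers and 133, 157, 131 and 122 CPM in WT 20 h livers. No 0 h library reached the 20 h range, and the log2 change was −1.12 ± 0.13 (SE, adjusted p = 0.000366 by edgeR). Tef overlaps the predicted gene Gm17597. Dbp, a D-box activator and direct BMAL1 target, had 1.52 to 4.27 CPM at 0 h and 3.78 to 12.3 CPM at 20 h, and its log2 change of −1.16 ± 0.26 did not pass in edgeR (adjusted p = 0.0839) but did in DESeq2 (adjusted p = 0.0034). Hlf, the remaining activator, had −0.34 ± 0.12 and Nfil3, the D-box repressor, 0.16 ± 0.22 on the log2 scale, with adjusted p-values of 0.299 and 0.829.

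None of the 3 activators of the loop passed in edgeR, while 1 was under an unadjusted p of 0.05 and 1 passed in DESeq2. Arntl had a log2 change of 0.11 ± 0.10 (adjusted p = 0.720) and Clock one of −0.42 ± 0.22 (adjusted p = 0.499). Npas2, the partner that can stand in for CLOCK, had 18.6, 11.9, 22.8 and 17.0 CPM in KO 0 h livers and 9.50, 13.7, 8.02 and 11.3 CPM in WT 0 h livers. At 20 h it had 10.5, 6.65, 3.70 and 6.18 CPM in KO livers and 11.4, 0.848, 5.55 and 4.87 CPM in WT livers. Its log2 change of 1.14 ± 0.33 had an adjusted p of 0.198 by edgeR and 0.0425 by DESeq2. Of the accessory repressors, Gm129 (Ciart, a repressor of BMAL1 and CLOCK) had 0.235 to 5.33 CPM at 0 h and 2.34 to 8.07 CPM at 20 h, a log2 change of −1.99 ± 0.44. It did not pass in edgeR (adjusted p = 0.0823), passed in DESeq2 (adjusted p = 0.00123), and passed in edgeR without WT 0 h replicate 2, its highest 0 h library (adjusted p = 0.00258). Bhlhe40 (DEC1) had −0.25 ± 0.21 (adjusted p = 0.676), and Bhlhe41 was too low to be tested.

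**Figure D2:**
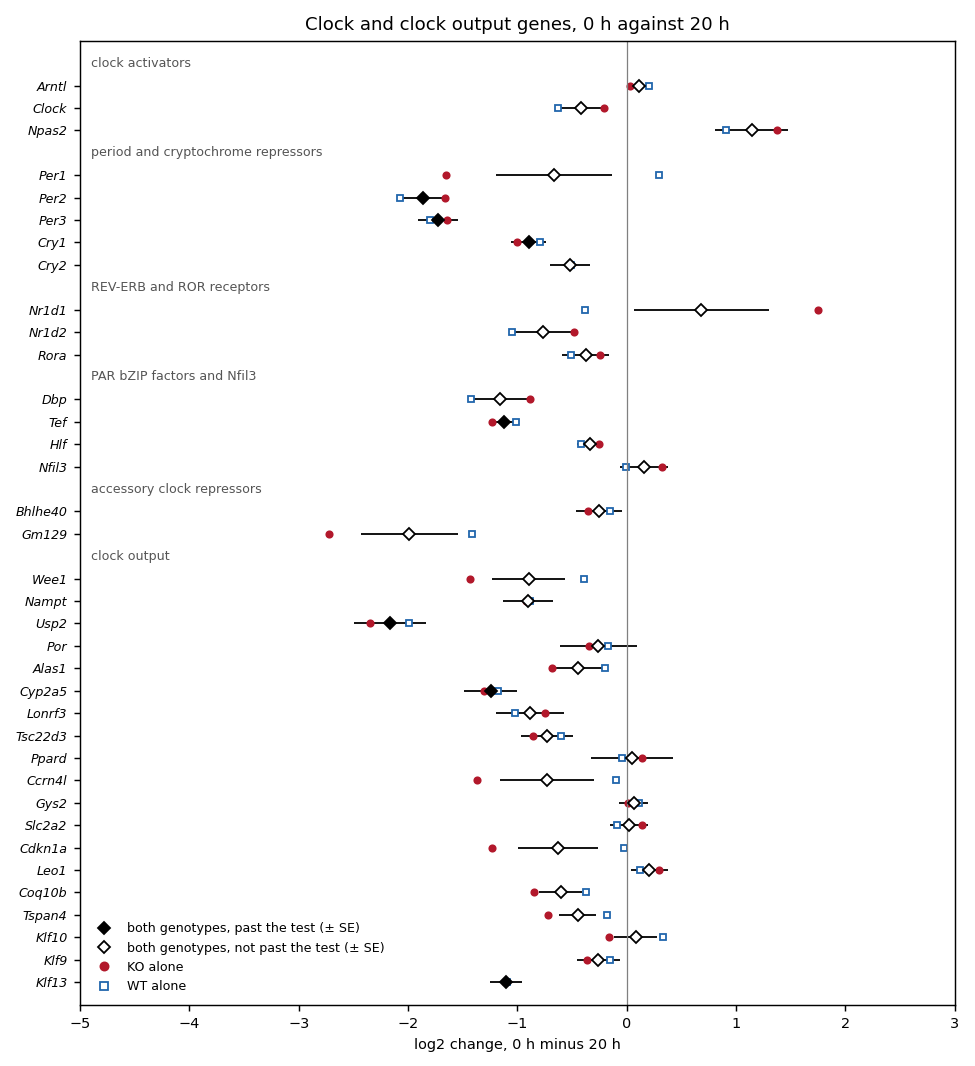
Log2 change (horizontal axis, 0 h minus 20 h) of 36 clock and clock output genes, grouped by role. Diamonds with bars are the estimate over both genotypes ± SE, filled where the gene passed the test; circles are KO and squares WT alone. The 7 filled diamonds all lie below 0, from −0.90 (Cry1) to −2.16 (Usp2).

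Among 19 clock output genes, 3 fell, none rose, and the median log2 change was −0.60. Usp2, a deubiquitinase whose liver mRNA is under clock control (chr9:43875104-43903708 in mm9), had 4.11, 3.41, 7.22 and 3.51 CPM in KO 0 h livers and 8.05, 9.61, 6.34 and 2.82 CPM in WT 0 h livers. At 20 h its values were 43.0, 12.0, 18.04 and 19.8 CPM in KO livers and 44.5, 10.0, 26.6 and 25.3 CPM in WT livers. The times did not overlap, though WT 20 h replicate 2 at 10.0 CPM lay close to WT 0 h replicate 2 at 9.61 CPM. The log2 change of −2.16 ± 0.33 (SE, adjusted p = 0.00677 by edgeR) was the largest fall among the 20 genes. Usp2 overlaps Rnf26 in the annotation, and its call was lost without the 3 libraries that stood apart (adjusted p = 0.0843).

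Klf13, a Krüppel-like transcription factor, had 19.3 to 34.4 CPM at 0 h and 39.4 to 81.4 CPM at 20 h, with a log2 change of −1.10 ± 0.15 (adjusted p = 0.00207 by edgeR). Its 0 h and 20 h libraries did not overlap in either genotype. Cyp2a5, the coumarin hydroxylase of mouse liver, averaged 498 ± 229 CPM at 0 h and 1179 ± 242 CPM at 20 h (SD, n = 8 each), with a log2 change of −1.24 ± 0.24 (adjusted p = 0.048). KO 0 h replicate 3 (828 CPM) and WT 0 h replicate 1 (865 CPM) lay above the lowest 20 h library (748 CPM). Cyp2a5 has a near-identical neighbour, Cyp2a4, so the share of reads counted for each is uncertain. Nampt, the rate-limiting enzyme of NAD salvage, had −0.90 ± 0.23 and did not pass in edgeR (adjusted p = 0.128) but did in DESeq2 (adjusted p = 0.0194).

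Over the 37 genes tested of the 6 clock and clock output lists, 20 had an unadjusted p under 0.05, 1 higher and 19 lower, and DESeq2 called 1 higher and 11 lower. By unadjusted p this is 54.1% of the listed genes, beside 11.2% of all genes. By DESeq2 it is 32.4% of the listed genes, beside 1.39% of all genes. The lists were chosen with earlier results of these data known, so these shares are a description and no test of the lists.

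The remaining genes that fell are not on the clock lists. Upp2, a liver uridine phosphorylase, had 26.7 to 85.3 CPM at 0 h (median 41.7) and 55.1 to 406 CPM at 20 h (median 156), with a log2 change of −1.88 ± 0.30 (adjusted p = 0.0128 by edgeR). KO 20 h replicate 1 (55.1 CPM) lay inside the 0 h range, and the call was lost without WT 0 h replicate 4 (adjusted p = 0.0511). Rhobtb1, which encodes an atypical small GTPase with BTB domains, had 34.2 to 55.3 CPM at 0 h and 71.3 to 86.5 CPM at 20 h, with no overlap. The log2 change was −0.75 ± 0.11 (adjusted p = 0.00324), and it overlaps A930033H14Rik. Lingo4, a leucine-rich repeat gene (chr3:94202439-94208423 in mm9), had 1.55 to 3.07 CPM at 0 h and 3.85 to 7.33 CPM at 20 h, with a log2 change of −1.51 ± 0.18 (adjusted p = 0.000374 by edgeR). It overlaps the predicted gene Gm17179, and its reads cannot be told apart from those that run past the end of an adjoining gene.

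Osbpl5, an oxysterol-binding protein homologue, averaged 2.81 ± 1.37 CPM at 0 h and 6.81 ± 2.73 CPM at 20 h (SD, n = 8 each), a log2 change of −1.27 ± 0.24. Mtss1, an actin-bundling scaffold, averaged 94.4 ± 18.8 CPM at 0 h and 171 ± 38.2 CPM at 20 h, a log2 change of −0.86 ± 0.16. In Mtss1 the log2 change was −0.52 ± 0.20 in KO and −1.21 ± 0.20 in WT livers, and the difference between them did not pass (unadjusted p = 0.0243, adjusted p = 1.00 by edgeR). Fmo5, a flavin monooxygenase, averaged 629 ± 203 CPM at 0 h and 1087 ± 213 CPM at 20 h, a log2 change of −0.82 ± 0.15. N4bp2l1 averaged 32.0 ± 6.93 CPM at 0 h and 56.4 ± 10.6 CPM at 20 h, a log2 change of −0.82 ± 0.15, with no overlap between the times. Map3k5 (ASK1, a stress-activated kinase) had the smallest change of the 20, −0.56 ± 0.11, with 36.0 ± 4.87 CPM at 0 h and 53.0 ± 6.60 CPM at 20 h. The adjusted p-values of these 5 genes were 0.0351 to 0.048 by edgeR.

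Of the 4 genes that rose at 0 h, Lgals9 had the highest counts, 2947 to 9139 a library, and Spon2 had 156 to 1031. Lgals9, which encodes the sugar-binding protein galectin-9 (chr11:78776476-78798448 in mm9), had 587, 559, 573 and 712 CPM in KO 0 h livers and 532, 585, 453 and 574 CPM in WT 0 h livers. At 20 h it had 402, 408, 364 and 393 CPM in KO livers and 362, 227, 406 and 298 CPM in WT livers. All 0 h libraries lay above all 20 h libraries, and the log2 change was 0.68 ± 0.12 (SE, adjusted p = 0.0243 by edgeR). The call was lost without KO 0 h replicate 4, WT 0 h replicate 2 or 4, KO 20 h replicate 3 or 4, or WT 20 h replicate 1 or 4 (adjusted p = 0.0501 to 0.0915), and without the 3 libraries that stood apart (adjusted p = 0.0843).

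Spon2, a secreted matrix protein of innate immunity, had 20.0 to 80.3 CPM at 0 h (median 41.0) and 11.5 to 32.9 CPM at 20 h (median 22.2), a log2 change of 1.03 ± 0.19 (adjusted p = 0.04 by edgeR). WT 0 h replicate 2, at 20.0 CPM, and WT 0 h replicate 4, at 32.4 CPM, lay inside the 20 h range. Prf1, perforin of cytotoxic lymphocytes and natural killer cells, had 0.628 to 1.56 CPM at 0 h and 0.148 to 0.540 CPM at 20 h, a log2 change of 1.48 ± 0.27 (adjusted p = 0.0351). Bcl2l14, a BCL2 family member, had 0.402 to 2.48 CPM at 0 h and 0.0741 to 0.396 CPM at 20 h, a log2 change of 2.01 ± 0.38 (adjusted p = 0.0375). Its highest value came from KO 0 h replicate 2, the library with pancreas transcripts. Without that library the log2 change was 1.635 and did not pass (adjusted p = 0.0815 by edgeR). The call was also lost without other single libraries, with an adjusted p up to 0.108 without KO 20 h replicate 3. Prf1 and Bcl2l14 rest on few counts and averaged below 1 CPM. The 14 lymphocyte markers summed to 15.6 to 66.7 CPM at 0 h and 16.3 to 30.2 CPM at 20 h, and 5 of the 10 tested had positive changes. Of the markers of cells that make perforin, Nkg7 had 4 to 41 counts at 0 h and 8 to 19 counts at 20 h, with a log2 change of 0.37 (adjusted p = 0.750 by edgeR). Its highest value was that of WT 0 h replicate 3, and the other 0 h libraries had at most 21 counts. Gzma, another such marker on the list, had 1 to 11 counts at 0 h and 0 to 20 counts at 20 h and was too low to be tested. Cd8a, of cytotoxic T cells, had 1 to 16 counts at 0 h and 0 to 8 counts at 20 h. The listed T cell genes Cd3d, Cd3e, Cd3g, Cd2 and Lck had 3 to 32 counts at 0 h and 1 to 31 counts at 20 h. The part of cells that make perforin in the change of Prf1 was not tested.

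The 20 genes had the same direction in both genotypes, which the test over both genotypes favours in the genes it picks. In 12 of the 20 the 8 libraries at 0 h did not overlap with the 8 at 20 h. Over all 12812 genes, 26 (0.203%) were separated in this way, 12 above (0.0937%) and 14 below (0.109%). The plot of adjusted p by setting shows how firmly each gene passed. Of the 20 genes, 7 passed under all 26 alternatives, with the highest adjusted p between 0.00593 (Per3) and 0.0466 (Klf13). Among them are Per2, Per3, Tef, Lingo4, Klf13 and Rhobtb1. Without the 3 libraries that stood apart, 8 genes passed, all lower, which are these 7 and Upp2. Osbpl5 kept its call on leaving out single libraries only for WT 0 h replicate 2, KO 20 h replicate 2 and WT 20 h replicate 2, Spon2 only for WT 0 h replicate 2 and WT 20 h replicate 3, and Map3k5 only for WT 0 h replicate 2, KO 20 h replicate 2 and WT 20 h replicate 2. Cyp2a5 kept it for KO 0 h replicate 3, WT 0 h replicate 1, KO 20 h replicate 1 and WT 20 h replicate 4, and Mtss1 for KO 0 h replicate 3, KO 20 h replicates 2 and 4 and WT 20 h replicate 2. Fmo5 kept it for WT 0 h replicates 1 and 2, KO 20 h replicate 2 and WT 20 h replicates 1 and 2, and N4bp2l1 for KO 0 h replicate 3, WT 0 h replicate 3, KO 20 h replicate 2 and WT 20 h replicates 2, 3 and 4. Prf1 kept it for KO 0 h replicate 3, WT 0 h replicate 1, KO 20 h replicate 2 and WT 20 h replicate 2, and Bcl2l14 for KO 0 h replicates 1 and 3, WT 0 h replicate 1 and KO 20 h replicate 2. For these 9 genes the highest adjusted p over all alternatives lay between 0.152 and 0.196, and no log2 change of the 20 genes changed sign. Some calls were also lost in edgeR under other processing. Map3k5 lost it with RLE scaling (adjusted p = 0.0534), no filter (0.0692), a minimum mean of 1 CPM (0.062), all 48 libraries (0.0941) and the replicate block (0.0731). Osbpl5 lost it with all 48 libraries (0.0664) and the block (0.0723). With all 48 libraries Spon2 (0.196) and Prf1 (0.0778) lost it, and Prf1 also with no filter (0.0538).

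**Figure D3:**
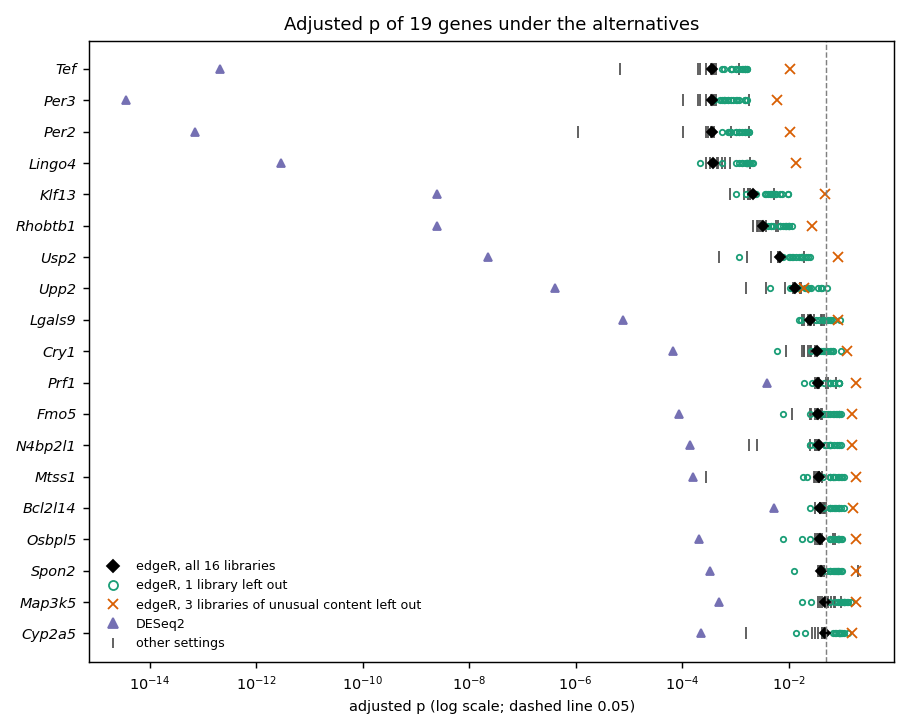
Benjamini-Hochberg adjusted p (horizontal axis, log scale; dashed line at 0.05) of 19 genes under each setting. Diamonds are edgeR with all 16 libraries, circles leave out 1 library, crosses leave out the 3 libraries of unusual content, triangles are DESeq2 and ticks the other settings. From Tef down to Rhobtb1 every mark lies left of the line, while 12 of the 13 genes beneath have their cross right of it.

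Within KO livers alone, 4 genes passed (0.0312%), all lower at 0 h. They include Lingo4 (log2 change −1.79 ± 0.24, adjusted p = 0.0147), Tef (−1.23 ± 0.18, adjusted p = 0.0181) and Per3 (−1.65 ± 0.27, adjusted p = 0.0458), by edgeR with 4 group means. Within WT livers alone, 2 genes passed (0.0156%), both lower: Per2 (−2.07 ± 0.30, adjusted p = 0.0254) and Per3 (−1.80 ± 0.27, adjusted p = 0.0254). At an unadjusted p under 0.05 there were 696 genes in KO (5.43%) and 1134 in WT (8.85%), and DESeq2 called 31 genes in KO (0.242%) and 25 in WT (0.195%). The KO count was 0 without KO 0 h replicate 1, 2 or 3 or KO 20 h replicate 4, 1 without KO 0 h replicate 4 or KO 20 h replicate 3, and 2 without KO 20 h replicate 2. The WT count was 0 without WT 0 h replicate 2, 3 or 4, WT 20 h replicate 1, 3 or 4, or KO 0 h replicate 1 or 3, and 1 without WT 0 h replicate 1, KO 20 h replicate 4 or WT 20 h replicate 2. Without the 3 libraries that stood apart both counts were 0.

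The difference between the KO and the WT change passed for 0 genes in edgeR and for 0 in DESeq2, with 457 genes (3.57%) at an unadjusted p under 0.05. The lowest p-values among genes of at least 1 CPM belonged to Pde1b, Snai2, Atf3, Orm2 and Mkx, each with an adjusted p of 1.00. Pde1b, a cyclic nucleotide phosphodiesterase, averaged 1.28 ± 0.27 CPM in KO 0 h and 2.34 ± 1.25 CPM in KO 20 h livers, and 4.22 ± 1.91 CPM in WT 0 h and 1.40 ± 0.29 CPM in WT 20 h livers (SD, n = 4 each). Its KO minus WT difference of log2 changes was −2.45 ± 0.56 (SE). For Orm2, an acute phase glycoprotein, the difference of −8.79 ± 2.24 rested on WT 0 h replicate 3 (5190 CPM) and KO 20 h replicate 1 (1030 CPM), since the other 14 libraries had 11.2 to 60.7 CPM. These are the libraries with the high Saa1 counts.

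Read over all 6 times, most of the 16 genes that fell were near the low point of their profile at 0 h. Of these genes 9 had their lowest pooled mean at 0 h, 6 at 4 h and 1 (Cry1) at 8 h, and 0 h was among the 2 lowest times for 14. Their highest mean was at 8 h for 3, at 12 h for 7, at 16 h for 5 and at 20 h for 1, which is Cry1. Per2 averaged 7.59, 12.6, 49.6, 76.4, 63.1 and 27.7 CPM at 0, 4, 8, 12, 16 and 20 h (n = 8 each, scaled over 48 libraries). Cry1 averaged 27.6, 10.8, 8.70, 19.6, 49.3 and 51.4 CPM at the same times, so its 0 h level lay between its extremes. All 4 genes that rose had their highest mean at 0 h. Lgals9 averaged 563.6, 420.7, 273.6, 254.0, 261.8 and 354.6 CPM, and Spon2 44.1, 18.8, 6.76, 4.51, 9.37 and 21.3 CPM. The 0 h and 20 h means here are those of the comparison itself, so the profiles are a description and no second test.

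**Figure D4:**
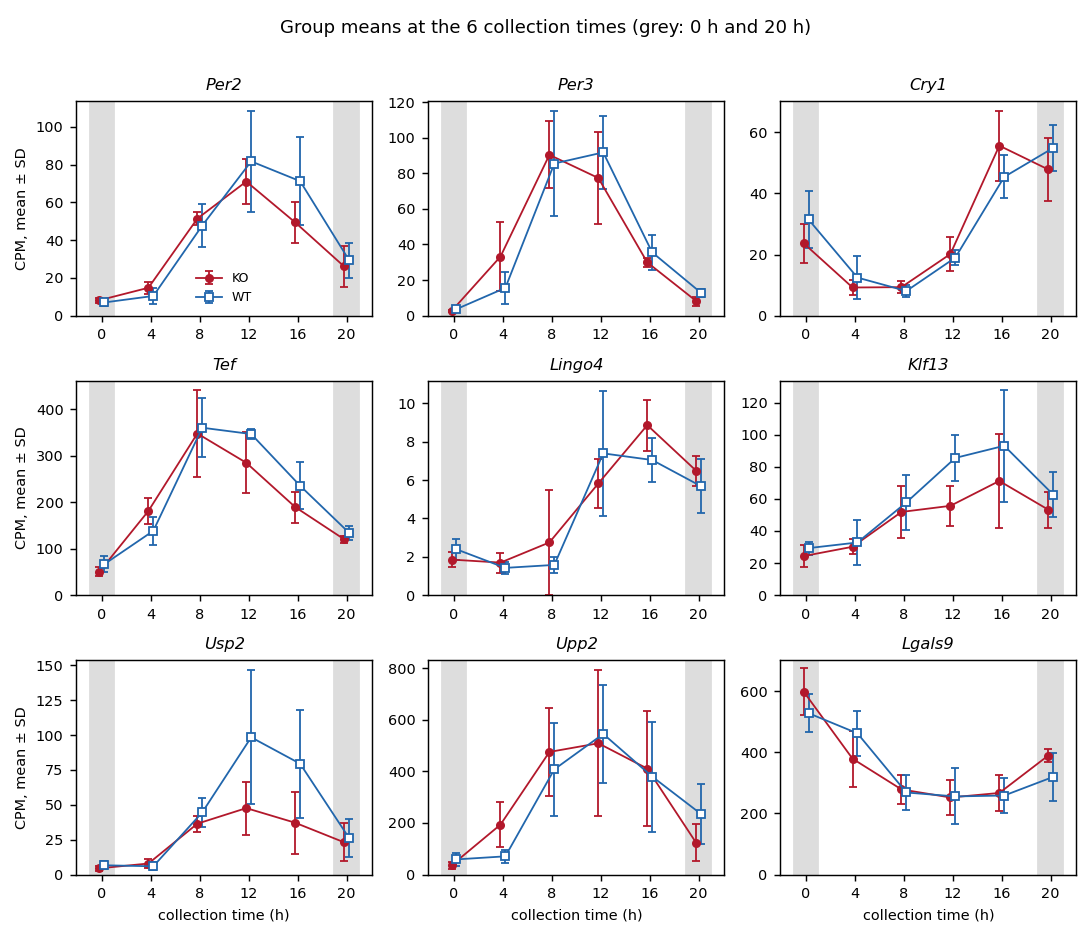
Mean ± SD of CPM (vertical axes, linear from 0) at the 6 collection times (horizontal axes, hours) for 9 of the genes past the test; circles are KO and squares WT, with 4 libraries a point except 3 KO and 5 WT at 16 h. The grey bands mark 0 h and 20 h, between which Per2 and Lgals9 differ in opposite directions.

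Outside the clock, 25 pathway lists with 471 genes tested and 10 marker lists with 80 genes tested held 0 genes past the edgeR test. Of the pathway genes 41 higher and 40 lower ones had an unadjusted p under 0.05 (17.2%, beside 11.2% of all genes), and DESeq2 called 8 higher and 12 lower (4.25%, beside 1.39% of all genes). Of the marker genes 4 higher and 2 lower ones had an unadjusted p under 0.05 (7.5%), and DESeq2 called 1 in each direction (2.5%). Shares of members in the lists below stand beside that 11.2% and the 48.7% of all genes that had a positive change. The names and values that follow are therefore descriptions of genes that did not pass. Genes below that are not the lowest p of their list were picked after their values were seen.

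Glucocorticoid response genes and metallothioneins had negative changes in 18 of 18, with a median of −0.35, and 7 were under an unadjusted p of 0.05 (38.9%). Lpin1, a phosphatidate phosphatase, had 27.6, 36.8, 29.1 and 45.3 CPM in KO 0 h livers and 37.2, 72.6, 14.3 and 48.9 CPM in WT 0 h livers. At 20 h it had 374, 50.3, 105 and 104 CPM in KO livers and 239, 55.9, 114 and 87.7 CPM in WT livers. Its log2 change was −1.86 ± 0.41 (adjusted p = 0.0786 by edgeR, 0.000801 by DESeq2), and its highest library, KO 20 h replicate 1, is one of those that stood apart. The receptor co-chaperone Fkbp5 averaged 73.8 CPM at 0 h, against 157 CPM at 20 h. The transcription factor Zbtb16 averaged 10.4 CPM at 0 h, against 31.4 CPM at 20 h. Both passed in DESeq2 (adjusted p = 0.0086 and 0.0036) and not in edgeR (0.115 and 0.107). The list's median was −0.83 in KO and −0.16 in WT livers. WT 0 h replicate 3, with adrenal transcripts, is among the libraries compared, and its part in this list was not tested.

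Cytosolic heat shock genes had negative changes in 21 of 22, with a median of −0.30, 6 of them under an unadjusted p of 0.05 (27.3%) and 0 called by DESeq2. Chordc1, an HSP90 co-chaperone, averaged 32.8 ± 8.23 CPM at 0 h and 52.3 ± 18.7 CPM at 20 h (SD, n = 8 each), with an adjusted p of 0.214 by edgeR. Of the 24 genes for chaperones and the unfolded protein response of the endoplasmic reticulum, 15 had positive changes. Herpud1, which aids degradation of misfolded proteins there, averaged 193 ± 57.6 CPM at 0 h and 377 ± 98.1 CPM at 20 h, with a log2 change of −0.96 ± 0.20 (adjusted p = 0.0644). It passed without KO 0 h replicate 4 (0.0211), without KO 20 h replicate 2 (0.0324) and without WT 20 h replicate 2 (0.0439). Herpud1 also passed in DESeq2 (adjusted p = 0.00121), and in edgeR with no filter (0.0458), all 48 libraries (0.0256) and the replicate block (0.00907).

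Interferon-stimulated genes had positive changes in 24 of 25, with a median of 0.38, 9 of them under an unadjusted p of 0.05 (36.0%). Dhx58, an RNA sensor of the RIG-I family, had 7.32 to 16.2 CPM at 0 h and 5.83 to 10.3 CPM at 20 h, a log2 change of 0.75 ± 0.16 (adjusted p = 0.0644 by edgeR). It passed without WT 0 h replicate 1 (0.023) and without KO 20 h replicate 2 (0.0324). DESeq2 called 3 of the 25, Dhx58, Isg15 and Oasl1. Macrophage and Kupffer cell markers had positive changes in 13 of 15, with a median of 0.47. They summed to 206 to 1901 CPM at 0 h and 354 to 804 CPM at 20 h, where the highest sum belongs to WT 0 h replicate 3. WT 0 h replicate 4, at 1055 CPM, also lay above every 20 h library, while WT 0 h replicates 1 and 2 had 322 and 505 CPM. None of these 15 markers was at 0 in any library, their median was −0.39 in KO and 1.25 in WT livers, and their part in the interferon list or in Lgals9 was not tested. Acute phase genes had positive changes in 18 of 21, with a median of 0.29, which was −0.23 in KO and 0.96 in WT livers. The 2 libraries with high Saa1 belong to WT 0 h and KO 20 h.

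Among lipid and sugar genes, Thrsp, a regulator of lipogenesis, averaged 34.5 ± 14.2 CPM at 0 h and 97.0 ± 52.0 CPM at 20 h (adjusted p = 0.0786 by edgeR). It passed without WT 20 h replicate 4, its lowest 20 h library (adjusted p = 0.016). Scd1, the delta-9 desaturase, averaged 645 CPM at 0 h and 1595 CPM at 20 h (adjusted p = 0.118), and Elovl5, a fatty acid elongase, 937 CPM at 0 h and 581 CPM at 20 h (adjusted p = 0.137). Insig1, a brake on sterol synthesis, averaged 85.7 ± 28.7 CPM at 0 h and 149 ± 39.6 CPM at 20 h (adjusted p = 0.148). These 4 passed in DESeq2. The median of the lipogenesis list was −0.05, beside −0.00755 over all genes. Glycolysis and glycogen genes had positive changes in 9 of 18, with a median of −0.00394. Of these 18, 3 higher and 4 lower ones were under an unadjusted p of 0.05 (38.9%). DESeq2 called 1 higher and 3 lower.

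Ccnd1, cyclin D1, averaged 46.9 ± 11.8 CPM at 0 h and 21.4 ± 9.23 CPM at 20 h, a log2 change of 1.14 ± 0.23 (adjusted p = 0.0644 by edgeR), and passed without KO 20 h replicate 2 (0.0324). It also passed in DESeq2 (adjusted p = 0.00121), in edgeR with no filter (0.0433) and in limma voom (0.0423). Its list of 20 DNA replication and cell cycle genes had 6 positive and 14 negative changes. Abcb4, the phospholipid exporter of the bile canaliculus, averaged 519 ± 42.7 CPM at 0 h and 385 ± 61.8 CPM at 20 h. Its adjusted p was 0.0945 by edgeR and 0.00195 by DESeq2. Proteasome subunits had positive changes in 26 of 31 (83.9%), with a median of 0.11. Of these subunits 5 were under an unadjusted p of 0.05 (16.1%), near the share of all genes, and DESeq2 called 0. Psmc4 had the lowest p (log2 change 0.35, adjusted p = 0.346). Endothelial markers had negative changes in 12 of 12 (median −0.23) and stellate cell markers in 11 of 11 (median −0.22), with 1 and 0 under an unadjusted p of 0.05 and 0 called by DESeq2 in both.

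In the other lists the gene with the lowest p had an adjusted p between 0.183 (Foxo1) and 0.835 (Arg1) by edgeR. They include Cirbp for cold-inducible RNA-binding (log2 change 0.20), Fgf21 for the amino acid response (0.58), Ppargc1a for PPARα targets (−0.63), Foxo1 for gluconeogenesis (−0.52), Arg1 for the urea cycle (−0.14) and Nr1i2 for xenobiotic metabolism (−0.46). Dusp1 for immediate early genes (−0.59), Socs2 for the growth hormone axis (0.59), Fga for the acute phase (0.47), Npm1 for ribosome biogenesis (−0.35), Cbs for the methyl cycle (0.57), Wipi2 for autophagy (0.24) and Tubb6 for tubulins (0.55) had the lowest p of theirs.

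**Figure D5:**
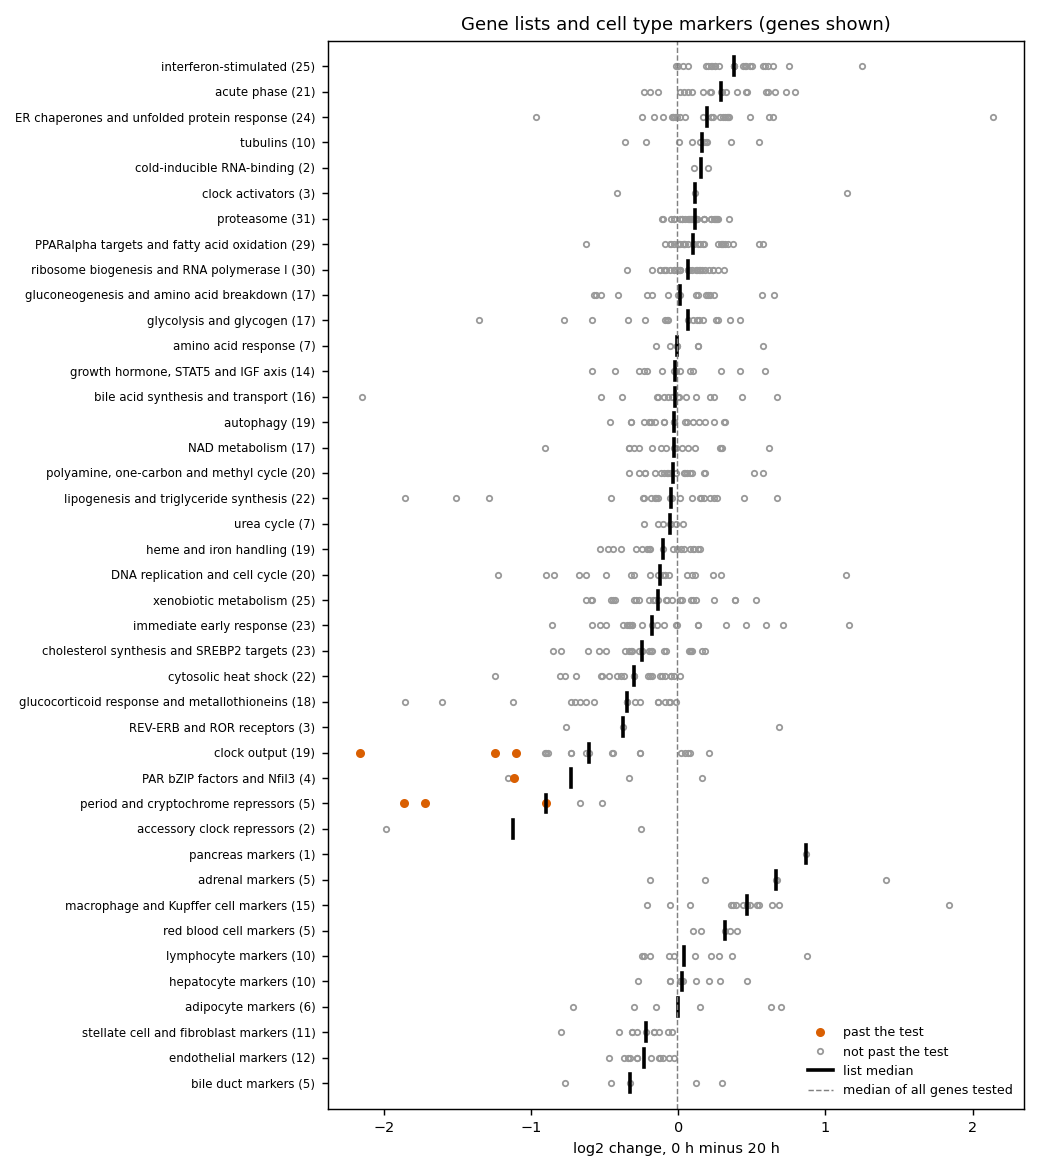
Log2 change (horizontal axis, 0 h minus 20 h) of members of 31 pathway lists (upper block) and 10 cell type marker lists (lower block), with the number of genes shown in brackets. Black bars are medians of the genes shown, filled points passed the test, open points did not, and the dashed line is the median of all genes tested. Filled points appear in 3 lists, all of clock or clock output genes and all left of 0.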

How the data were processed

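Per the labels' protocols and the series' design text, poly-A RNA of liver went into TruSeq version 2 libraries, a chemistry that does not mark strand, for sequencing on a HiSeq 2000. The authors deposited 1 table that gives, for each of 22354 genes, its read count as a whole number. The submitters' processing notes name CASAVA, the aligner STAR 2.4.1d and mouse build mm9. How reads were assigned to genes, and from which annotation, is not stated there, so values of overlapping and near-identical genes are uncertain. Totals are of nearly equal size for a reason that is not stated, which does not show equal depth.

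Groups, times and replicate numbers came from the labels. The albumin row was left out, as in earlier work on these data, where its values looked like a scaled estimate. The filter of edgeR 4.0.16 (minimum count 10, minimum total 15, 4 groups) kept 12812 of 22353 genes and removed 9541. TMM scaling over the 16 libraries, a quasi-likelihood fit of time with genotype as covariate, and Benjamini-Hochberg adjustment gave the calls in R 4.3.3. A fit with 4 group means gave the values within each genotype and their difference. The SE is the log2 change divided by the square root of F. CPM are the deposited counts per 1000000 after TMM scaling, over the 16 libraries or, for the 6 times, over all 48. DESeq2 1.42.0 and limma 3.58.1 were alternatives. The scripts were tested on simulated data. No pair of libraries of a group agreed within counting noise (lowest chi-square per degree of freedom 22.5).

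The genes named are the tested members of the 5 core clock lists, up to 12 called genes a direction with at least 1 CPM and the same direction in both genotypes, the lowest p of each other pathway list, and the 5 lowest p of the genotype difference. Rhobtb1, Fmo5, Prf1, N4bp2l1, Bcl2l14 and Map3k5, called outside that rule, were named after their values were seen. The values of 3 of the genes tested are not reported here, though counts include them. The members and lists were chosen with earlier results of these data known. Promoter windows came from RefSeq tables and were matched by symbol. Alternatives were other scalings, filters and tests, all 48 libraries, a replicate block, each library left out, and 3 libraries of unusual content left out.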

Additional observations from a re-analysis of the deposited data

Results flagged for a closer look

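Among 252 sets of 4 libraries (63 named genes in 4 groups), 15 held a library far from the other 3, with a gap to its nearest neighbour above Dixon's 95% limit of 0.829 of the range. Chance flags about 1 in 20 such sets, which is 12.6 here. Of genes past the test, Cry1 was high in WT 0 h replicate 1 (46.2 CPM, others 26.0 to 28.8) and in KO 20 h replicate 3 (64.5 CPM, others 42.2 to 43.7). Cyp2a5 was high in WT 0 h replicate 1 (865 CPM, others 358 to 441). Fmo5 (597 CPM, others 439 to 460.0) and Bcl2l14 (2.48 CPM, others 0.533 to 0.785) were high in KO 0 h replicate 2, the library with pancreas transcripts.

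Of genes not past the test, Nr1d2 was high in WT 20 h replicate 2 (81.2 CPM), Foxo1 in WT 0 h replicate 4 (64.8 CPM) and Bhlhe40 was low in KO 0 h replicate 2 (30.3 CPM). In KO 20 h replicate 3, Ppargc1a (34.4 CPM) and Npm1 (400 CPM) were high and Snai2 was low (2.05 CPM). Pde1b (7.06 CPM) and Orm2 (5190 CPM) were high in WT 0 h replicate 3, and Lpin1 (374 CPM) and Orm2 (1030 CPM) in KO 20 h replicate 1, the libraries with high Saa1 counts. What sets these values apart was not tested.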

How the results depend on the processing

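The count of 20 genes lay between 17 and 28 with RLE scaling, totals only, no filter, a minimum mean of 1 CPM, the replicate block, edgeR's newer quasi-likelihood method and limma voom; the last 2 were chosen after seeing the data. It was 178 with DESeq2, 37 with all 48 libraries and 8 without the 3 libraries of unusual content. Leaving out single libraries gave 8 to 36: 8 without WT 0 h replicate 4, 9 without KO 20 h replicate 3, 10 without KO 0 h replicate 4, 11 without KO 0 h replicate 1 or KO 20 h replicate 4, 12 without KO 0 h replicate 2 or WT 0 h replicate 3, 13 without WT 20 h replicate 1 or 3, and 36 without KO 20 h replicate 2. Within KO livers the count of 4 became 31 with DESeq2, 8 with all 48 libraries, 0 without the 3 libraries and 0 to 5 on leaving out 1. Within WT livers the count of 2 became 4 with totals only, 25 with DESeq2, 4 with all 48 libraries, 0 with the replicate block, 0 without the 3 libraries and 0 to 3 on leaving out 1. The genotype difference was called for 1 gene, Orm2, with all 48 libraries and for 0 to 0 on leaving out 1. The cause of these shifts was not tested.

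Replicate numbers were not taken to pair the mice, since not every pair of the same number had deviations correlated above 0.1. That rule cannot show that libraries of the same number share nothing, so the replicate block is given as an alternative. Of 8 pairs of a 0 h and a 20 h library of the same genotype and number, 1 was above 0.1 (range −0.268 to 0.385 over 2000 genes). Of the 16 same-number pairs across genotypes, at the same or the other time, 10 were (range −0.239 to 0.581), and of the 6 pairs of number 1, 5 were and all 6 were positive (0.0371 to 0.581). Of the libraries, 3 of 16 correlated best with their own number. With the replicate block 28 genes were called, 18 of them among the 20.

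Of the 63 named genes, 3 that did not pass changed sign in the time comparison. Orm2 had −0.17 with the replicate block, −0.61 without the 3 libraries, −0.13 with limma voom and −1.96 to 2.43 on leaving out 1 library. Mkx had −0.045 without the 3 libraries and −0.14 to 0.28 on leaving out 1, and Atf3 −0.12 to 0.34. Of the 43 named genes not called, 12 passed under at least 1 alternative. Depth limits genes of few counts, such as Prf1 and Bcl2l14.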

Other observations

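Of the 26 genes whose 8 libraries at 0 h did not overlap with the 8 at 20 h, 14 had not passed the test, and the genes named here were picked after their values were seen. Among those with 0 h below 20 h was Fmo2, a flavin-containing monooxygenase like Fmo5, with 74.3 CPM at 0 h and 136 CPM at 20 h (log2 change −0.87, adjusted p = 0.0839 by edgeR and 0.00527 by DESeq2). Ccng2, an unconventional cyclin, had 35.8 CPM at 0 h and 54.0 CPM at 20 h (log2 change −0.59, adjusted p = 0.0848 by edgeR and 0.00608 by DESeq2). With 0 h above 20 h was Sec61a1, a subunit of the channel through which new proteins enter the endoplasmic reticulum, at 147 CPM at 0 h and 111 CPM at 20 h (log2 change 0.40, adjusted p = 0.103 by edgeR and 0.00608 by DESeq2). Tmed10, a cargo receptor of the early secretory route, had 124 CPM at 0 h and 96.2 CPM at 20 h (log2 change 0.36, adjusted p = 0.199 by edgeR and 0.0668 by DESeq2). Lars2, the mitochondrial leucyl-tRNA synthetase, had 16.2 CPM at 0 h and 11.9 CPM at 20 h (log2 change 0.44, adjusted p = 0.153 by edgeR and 0.0268 by DESeq2).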
